A study of Saccharomyces cerevisiae BY4741 with 9 samples.

Results

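The 30 genes described here encode the enzymes, electron donors, regulators and storage proteins of the mevalonate and ergosterol pathway of budding yeast. They were chosen by name, and all 30 were found among the 7130 features of the deposited expression table under the same symbols and systematic names. Their values were compared between wild type (WT) and scc2-4, a mutant allele of SCC2, which encodes a subunit of the complex that loads cohesin onto chromosomes. According to the labels both genotypes were of the BY4741 background and grew in rich YPD medium with complete supplement (YPD+CSM) to an optical density of 0.7, and the series' design names 3 biological replicates of each. The labels give ribo-depletion as the preparation of all 3 scc2-4 libraries. WT RNA was split and made into libraries both with and without ribo-depletion, and the names of the 3 WT columns do not say which of these they are. A difference between the genotypes therefore cannot be told apart from one of library preparation if the WT columns came from total RNA.

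Ergosterol is the main sterol of the yeast plasma membrane. Acetyl-CoA is first turned into mevalonate and then into isoprenoid units, which are joined to squalene. Squalene is oxidised to its epoxide, which is closed into lanosterol, the first sterol of the pathway. The later steps turn lanosterol into ergosterol in the endoplasmic reticulum. Several of them consume molecular oxygen and need haem or cytochrome b5. The zinc cluster activators Upc2 and Ecm22 bind a sterol regulatory element upstream of many of these genes, and Are1 and Are2 store surplus sterol as esters.

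Because Upc2 and Ecm22 are the pathway's own activators, the members whose upstream region carries the core of that element, TCGTATA, are shown first. Both strands of the 500 bases before each start codon were searched in the S288C reference genome of RefSeq, assembly R64, the genome release that the name sacCer3 also denotes. All 30 members have the same start and end there as in the deposited table. The core occurred upstream of 9 of the 30 members, 30% of them, and upstream of 6.96% of 5979 protein-coding genes searched in the same way. The longer motif of the haem-dependent activator Hap1 was found upstream of 0.351% of the 5979 genes and of 0 members. Each line below gives the strand of the gene from 5′ to 3′, with 30 bases to each side where the window allows, and capitals mark the core in either orientation.
ERG13, chrXIII:20713-20779, minus strand: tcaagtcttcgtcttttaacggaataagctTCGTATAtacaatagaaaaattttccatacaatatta
ERG13, chrXIII:20600-20666, minus strand: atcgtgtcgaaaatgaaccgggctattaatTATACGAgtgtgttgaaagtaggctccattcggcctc
ERG8, chrXIII:712134-712200, plus strand: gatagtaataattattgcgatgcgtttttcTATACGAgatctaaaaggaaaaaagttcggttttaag
ERG1, chrVII:848769-848835, minus strand: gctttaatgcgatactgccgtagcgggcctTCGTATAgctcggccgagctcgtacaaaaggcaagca
ERG25, chrVII:610064-610137, plus strand: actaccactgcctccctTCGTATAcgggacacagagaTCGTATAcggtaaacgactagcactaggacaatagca
ERG28, chrV:238258-238324, minus strand: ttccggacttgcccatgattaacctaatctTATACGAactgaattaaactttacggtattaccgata
ERG6, chrXIII:253386-253452, minus strand: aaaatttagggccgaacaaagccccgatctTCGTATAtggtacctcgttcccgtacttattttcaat
ERG2, chrXIII:667322-667388, plus strand: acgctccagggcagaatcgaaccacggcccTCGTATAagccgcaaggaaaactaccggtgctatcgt
ERG3, chrXII:253505-253611, plus strand: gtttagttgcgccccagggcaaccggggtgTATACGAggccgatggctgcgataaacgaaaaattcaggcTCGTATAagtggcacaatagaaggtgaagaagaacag
CYB5, chrXIV:417541-417607, minus strand: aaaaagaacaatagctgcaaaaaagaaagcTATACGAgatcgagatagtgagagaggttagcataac

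ERG13, ERG25 and ERG3 carried 2 cores each. The core nearest to a start codon was that of ERG13, 95 bases away, and the farthest was the first core of ERG25, 477 bases away. The window of ERG1 overlaps annotated features of the neighbouring genes ATF2 and YGR176W, the first window of ERG13 overlaps PGA3, and that of ERG2 overlaps the non-coding RNA170. A match describes the letters in the window and is not a measure of binding.

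The 6 libraries held 14730000 to 21930000 reads assigned to features, and the member with the fewest reads in any library was CYB5, with 148. One WT library, replicate 1, was less like the rest of its genotype: over the features tested, log2 levels correlated with r = 0.977 and 0.968 to WT replicates 2 and 3, which reached r = 0.993 with each other. The scc2-4 libraries reached r = 0.990 to 0.993. SCC2 itself was at 7.68, 10.3 and 12.2 RPKM (reads per kilobase of feature and 1000000 assigned reads) in WT and at 16.5, 17.9 and 17.9 RPKM in scc2-4, which does not check the labels because the allele encodes a mutant protein. Of the 6559 features tested, those on chromosome IX had a median log2 change of 0.81 between the genotypes. No member of the pathway lies on that chromosome.

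In scc2-4, 5 of the 30 members rose, 0 fell and 25 did not pass an adjusted p of 0.05 in limma, a linear model with moderated variances fitted over all 6559 features. The 5 were CYB5, ERG25, MVD1, ARE1 and UPC2, with rises of 2.1-fold to 1.32-fold. They make up 16.7% of the members, against 17.5% of all features tested that were called higher and 15.0% called lower, so the share called higher lies near the background. At an unadjusted p under 0.05 in the same fit 12 of the 30 members were higher and 1, ERG28, was lower. Of all 6559 features tested, 1660 were higher and 1394 lower at that unadjusted threshold. At an adjusted p of 0.05, limma-voom on the recovered reads called 5 members higher and 0 lower. The members' values separated the genotypes more often than they passed the test: in 17 of 30, or 56.7%, all 3 mutant libraries lay above all 3 WT libraries, which held for 30.9% of all features. The reverse order held for 3 members, or 10%, against 23.6% of all features. The median log2 change over the members was 0.26, against 0.047 over all features tested. It was above 0 for 23 of the 30 members and for 3555 of the 6559 features.

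WT replicate 1 bears on these values. It was the lowest WT library for 16 of the 30 members, or 53.3%, and for 29.4% of all features tested. Among the 17 members whose mutant values all exceeded WT, it was the lowest WT library for 12. Without it, 8 members were called higher, or 26.7%, against 20.7% of features called higher and 16.5% called lower in that fit. The 5 named above were among them, and ERG13, ERG1 and ERG11 were added, and the median change was 0.19. Leaving out a mutant library had the opposite effect on the count, with 1 member called higher without scc2-4 replicate 1 and 0 without replicate 2 or 3. Without WT replicate 2 the count was 4, and without WT replicate 3 it was 9. Calls over all features moved as well, from 2133 in either direction with all libraries. They numbered 1039, 781 and 766 without scc2-4 replicate 1, 2 and 3, and 1415 and 2335 without WT replicate 2 and 3.

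**Figure D1:**
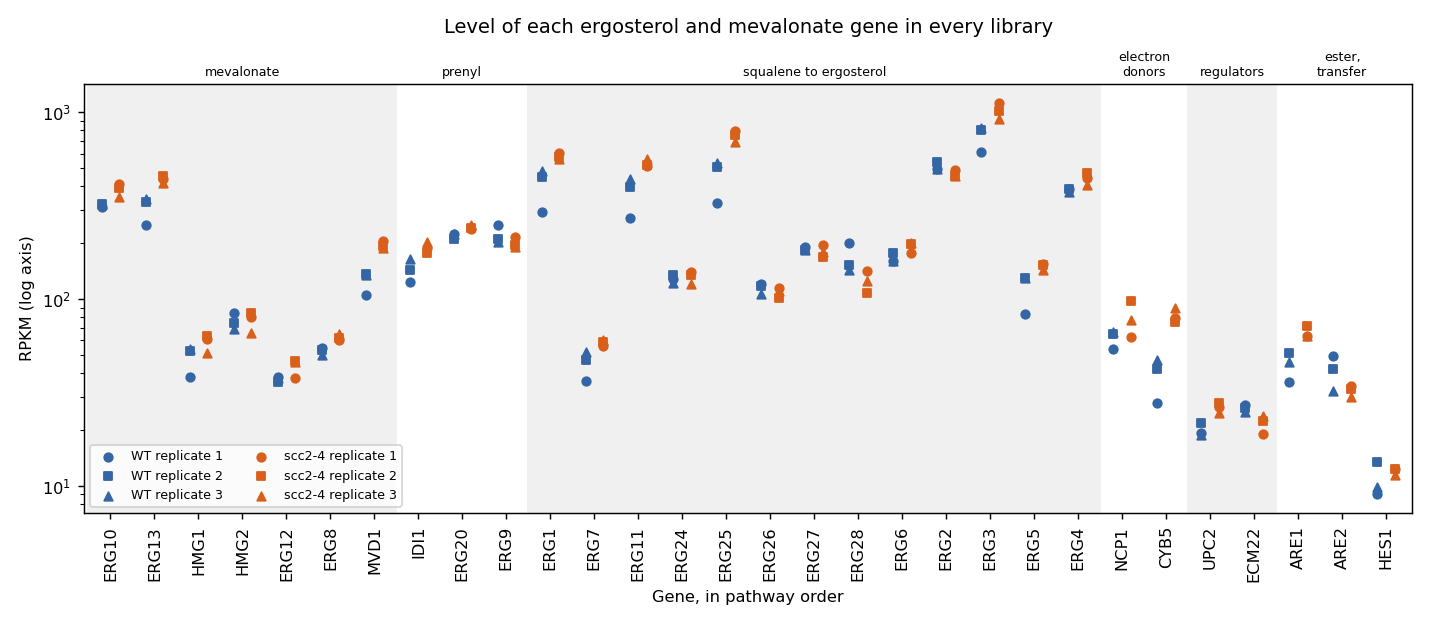
RPKM on a log axis for each of the 30 genes in pathway order, with 1 point per library, WT in blue and scc2-4 in orange, and the symbol giving the replicate number. ERG3 has the highest values and HES1 the lowest, and WT replicate 1 (blue circle) lies below the other WT libraries for ERG1, ERG11, ERG25 and ERG5.

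The mevalonate segment runs from acetyl-CoA to isopentenyl diphosphate. Of its 7 genes, 1 rose and 6 did not pass, and all 7 log2 changes were above 0, with a median of 0.28. Over all features tested, 3555 of 6559 changes were above 0. MVD1 (YNR043W, chromosome XIV, 701895 to 703085, plus strand) encodes mevalonate pyrophosphate decarboxylase, the last enzyme of the segment. It stood at 105, 135 and 135 RPKM in WT and at 206, 192 and 187 RPKM in scc2-4. The groups did not overlap, and MVD1 rose 1.57-fold, from 125 ± 17.7 to 195 ± 9.77 RPKM (means with SD, 3 libraries each; log2 change 0.65 ± 0.15 SE; adjusted p = 0.0197, limma). The fold changes given with a test are on the log2(RPKM + 1) scale with each library centred on its median feature. The call ended without any one of the scc2-4 replicates (adjusted p = 0.0677 to 0.0692), and adjusted p was 0.00286 without WT replicate 1.

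ERG13, the gene for HMG-CoA synthase, lay just outside the threshold. Its values were 249.7, 329 and 343 RPKM in WT and 437, 454 and 416 RPKM in scc2-4, so the groups did not overlap. The log2 change was 0.52 ± 0.17 (SE; adjusted p = 0.0505, limma), and adjusted p was 0.0182 without WT replicate 1, where the change was 0.34. Without one of the scc2-4 replicates adjusted p was 0.118 to 0.148. ERG10, which encodes the acetyl-CoA acetyltransferase of the first step, had 309, 324 and 324 RPKM in WT and 413, 395 and 349.6 RPKM in scc2-4. These groups did not overlap either, with a log2 change of 0.28 (adjusted p = 0.0918, limma).

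The kinases of the segment had low levels. ERG8, the phosphomevalonate kinase gene, was at 55.0, 53.4 and 49.9 RPKM in WT and at 60.2, 61.7 and 64.8 RPKM in scc2-4, without overlap (log2 change 0.25, adjusted p = 0.0738, limma). ERG12, the mevalonate kinase gene, was at 38.4, 35.9 and 37.8 RPKM in WT and at 37.8, 46.7 and 46.1 RPKM in scc2-4. Here scc2-4 replicate 1 lay within the WT range, and the log2 change was 0.22 (adjusted p = 0.184, limma).

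HMG-CoA reductase, the main point of control of the segment, is encoded by the paralogues HMG1 and HMG2. HMG1 was at 38.3, 52.7 and 54.1 RPKM in WT and at 61.0, 63.5 and 51.1 RPKM in scc2-4, and HMG2 at 84.6, 73.9 and 69.3 RPKM against 79.7, 84.6 and 66.0 RPKM. The groups overlapped for both genes. The log2 change was 0.29 for HMG1, with a 95% confidence interval of -0.14 to 0.72 and a value of 0.093 without WT replicate 1, and 0.02 for HMG2, with an interval of -0.25 to 0.29. HMG2 had the higher level of the pair in every library. The ratio of HMG1 to HMG2 was 0.453 in WT replicate 1, 0.713 and 0.782 in the other WT libraries, and 0.751 to 0.774 in scc2-4. It did not separate the genotypes (difference of the log2 ratio 0.27, exact permutation test, two-sided, p = 0.4), and the difference was 0.031 without WT replicate 1.

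Isoprenoid units are carried on to squalene by the products of 3 genes, of which 0 passed. IDI1, which encodes isopentenyl diphosphate isomerase, had 124, 143 and 164 RPKM in WT and 187, 177 and 203 RPKM in scc2-4, with no overlap (log2 change 0.41, adjusted p = 0.0800, limma, and a change of 0.27 without WT replicate 1). ERG20, the farnesyl pyrophosphate synthase gene, was at 224, 211 and 223 RPKM in WT and at 237, 239.6 and 249.9 RPKM in scc2-4. These ranges were also separate, by a small margin, with a log2 change of 0.16 (95% confidence interval -0.08 to 0.39). ERG9, which encodes squalene synthase at the branch point to sterols, was at 249, 209.6 and 203 RPKM in WT and at 214, 195 and 189 RPKM in scc2-4, and its groups overlapped (log2 change -0.13, adjusted p = 0.340, limma).

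The segment from squalene to ergosterol has 13 genes, of which 1 rose and 12 did not pass, with 8 entirely above WT, 2 entirely below and 3 overlapping. The enzymes that use molecular oxygen, Erg1, Erg11, Erg25, Erg3 and Erg5, were set apart as a group after the values had been seen, so their counts are a description only. All 5 of their genes lay above WT in all 3 mutant libraries, with a median log2 change of 0.55, against 0.0063 for the 8 other genes of the segment, and the same order held for 30.9% of all features. Without WT replicate 1 these medians were 0.29 and -0.029.

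ERG25 (YGR060W, chromosome VII, 610564 to 611493, plus strand) encodes the C-4 methyl sterol oxidase and carries 2 of the cores shown above. It stood at 325, 507 and 532 RPKM in WT and at 790.1, 754 and 692 RPKM in scc2-4. All mutant values exceeded all WT values, and ERG25 rose 1.68-fold, from 455 ± 113 to 745 ± 49.4 RPKM (log2 change 0.75 ± 0.22 SE; adjusted p = 0.0398, limma). Without WT replicate 1 the log2 change was 0.49 (adjusted p = 0.00626). The call ended without WT replicate 2 (adjusted p = 0.0568) and without any one of the scc2-4 replicates (0.0986 to 0.114).

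The other 4 oxygen-using genes did not pass. ERG1, which encodes the squalene epoxidase targeted by allylamine antifungals, was at 291, 450.2 and 486 RPKM in WT and at 604, 577 and 563 RPKM in scc2-4 (log2 change 0.55, adjusted p = 0.0969, limma). ERG11, the lanosterol 14-alpha-demethylase gene and the target of azoles, was at 271, 397 and 441 RPKM against 515, 524 and 562 RPKM (log2 change 0.57, adjusted p = 0.0808, limma). For both the mutant libraries lay close together and WT replicate 1 far below the other WT libraries. Without that library the log2 changes were 0.28 and 0.32, and both passed (adjusted p = 0.0400 and 0.0421, limma).

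ERG3, the C-5 sterol desaturase gene with 2 cores upstream, had the highest level of all members, 615, 799 and 818 RPKM in WT and 1116, 1013 and 919 RPKM in scc2-4 (log2 change 0.47, adjusted p = 0.0710, limma). ERG5, the gene of the C-22 desaturase, the second cytochrome P450 of the pathway, was at 82.8, 129 and 129.8 RPKM in WT and at 153, 152 and 142 RPKM in scc2-4 (log2 change 0.42, adjusted p = 0.155, limma). Neither overlapped between genotypes. Without WT replicate 1 the changes were 0.29 and 0.17, and neither passed.

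Among the 8 remaining genes of the segment, 0 passed. ERG7 (lanosterol synthase) was at 36.5, 46.9 and 52.0 RPKM in WT and at 55.8, 58.5 and 60.4 RPKM in scc2-4, ERG6 (C-24 sterol methyltransferase) at 160.2, 176 and 159 RPKM against 177, 197 and 198 RPKM, and ERG4 (the final C-24(28) reductase) at 388, 388 and 372 RPKM against 445, 472 and 409.5 RPKM. These 3 lay above WT in every mutant library, with log2 changes of 0.38, 0.22 and 0.22, and that of ERG7 was 0.20 without WT replicate 1. ERG7 overlaps YHR071C-A and ERG27 overlaps YLR101C, and reads from each pair cannot be separated because no use of strand is stated.

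ERG24, ERG26 and ERG27, which encode the C-14 reductase, the C-3 dehydrogenase and the 3-keto reductase, had overlapping groups and log2 changes of 0.04, -0.07 and -0.03. Their 95% confidence intervals reached from -0.20 to 0.28, from -0.29 to 0.16 and from -0.26 to 0.20. ERG24 stood at 128, 135 and 122 RPKM in WT and at 139.6, 134 and 120.3 RPKM in scc2-4, a level that differed by less than the spread between replicates.

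ERG28 and ERG2 had every mutant value below WT. ERG28, which encodes the membrane scaffold that holds the C-4 demethylation enzymes Erg25, Erg26 and Erg27 together, was at 199, 151 and 143 RPKM in WT and at 141, 108 and 125 RPKM in scc2-4 (log2 change -0.38, adjusted p = 0.0732, limma). Its order was thus opposite to that of ERG25, and both have the core upstream. ERG2, the C-8 sterol isomerase gene, was at 493, 543 and 496 RPKM against 488, 453 and 457 RPKM (log2 change -0.12, adjusted p = 0.411, limma).

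**Figure D2:**
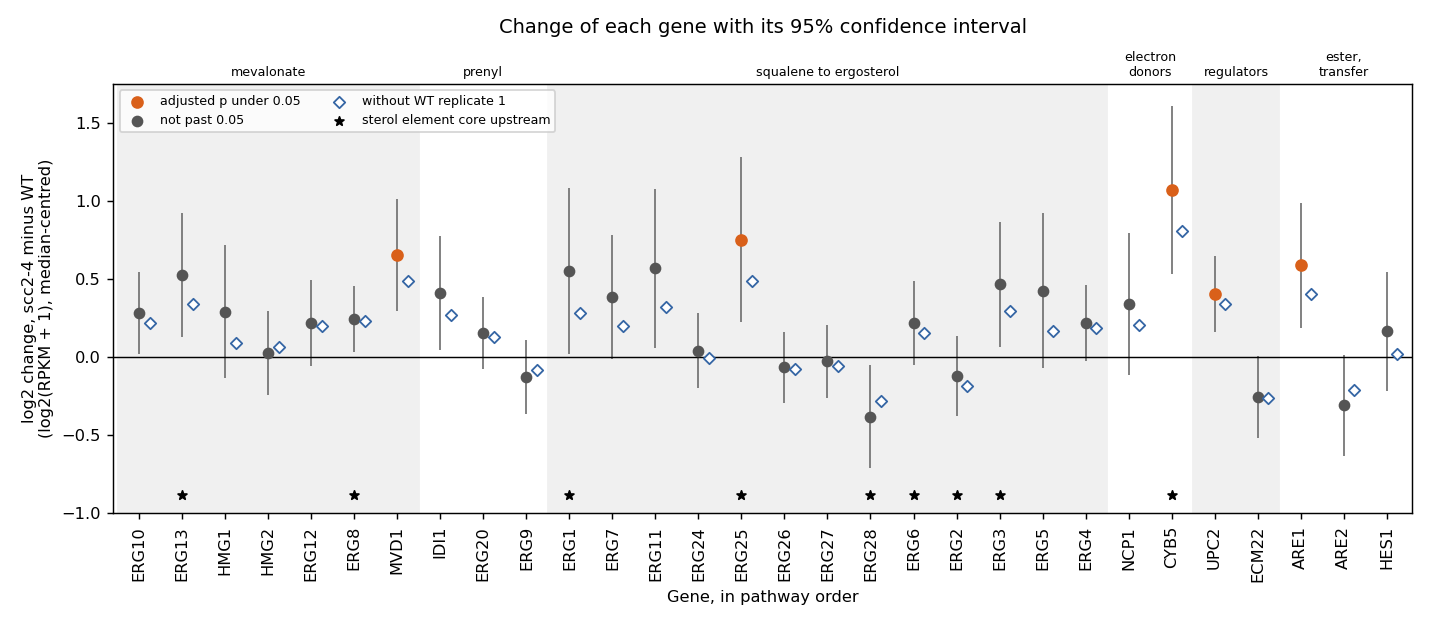
Log2 change of each gene, scc2-4 minus WT, with its 95% confidence interval from limma as a vertical line; orange circles passed an adjusted p of 0.05 and grey ones did not. Open diamonds give the change without WT replicate 1 and stars mark the 9 genes with the sterol element core upstream. CYB5, at 1.07, has the highest value, and ERG28, at -0.38, the lowest.

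The electron donors of the pathway are Ncp1, the reductase that serves cytochromes P450, and cytochrome b5, encoded by CYB5, which passes electrons to lipid-modifying oxidases and desaturases. CYB5 (YNL111C, chromosome XIV, 416940 to 417302, minus strand) had the largest change of the 30 members. Its values were 27.8, 42.4 and 47.4 RPKM in WT and 78.6, 75.0 and 89.5 RPKM in scc2-4. The lowest mutant library lay well above the highest WT library, and CYB5 rose 2.1-fold, from 39.2 ± 10.2 to 81.0 ± 7.59 RPKM (log2 change 1.07 ± 0.23 SE; adjusted p = 0.0155, limma).

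Without WT replicate 1 the log2 change of CYB5 was 0.81 (adjusted p = 0.00176), and CYB5 no longer passed with scc2-4 replicate 2 left out (adjusted p = 0.0520) or with replicate 3 left out (0.0634). NCP1 was at 54.2, 65.3 and 66.6 RPKM in WT and at 62.6, 97.0 and 77.5 RPKM in scc2-4, with overlapping groups (log2 change 0.34, adjusted p = 0.208, limma, and a change of 0.20 without WT replicate 1). CBR1, the reductase gene that supplies cytochrome b5 with electrons, rose 2.21-fold, from 235 ± 8.92 to 521 ± 75.6 RPKM (adjusted p = 0.00358, limma). It lies on chromosome IX, where 174 of the 244 features tested were called higher.

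The 2 activators had opposite orders between the genotypes. UPC2 (YDR213W, chromosome IV, 889751 to 892492, plus strand) stood at 19.2, 21.6 and 18.7 RPKM in WT and at 26.5, 27.8 and 24.6 RPKM in scc2-4. It rose 1.32-fold, from 19.8 ± 1.58 to 26.3 ± 1.6 RPKM (log2 change 0.40 ± 0.10 SE; adjusted p = 0.0262, limma). Unlike the other 4 that rose, UPC2 did not have WT replicate 1 as its lowest WT library, and its log2 change without that library was 0.34 (adjusted p = 0.0240). The call ended without WT replicate 3 (adjusted p = 0.0507) and without any one of the scc2-4 replicates (0.0716 to 0.0988).

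ECM22 was at 27.2, 26 and 24.8 RPKM in WT and at 18.8, 22.1 and 23.6 RPKM in scc2-4, so all mutant values lay below WT (log2 change -0.26, adjusted p = 0.118, limma). In each WT library ECM22 had the higher level of the pair, and in each mutant library UPC2 had. The ratio of ECM22 to UPC2 was 1.42, 1.2 and 1.33 in WT and 0.710, 0.795 and 0.958 in scc2-4. The log2 ratio fell from 0.38 ± 0.11 to -0.28 ± 0.21 (SD), a difference of -0.66 with a p of 0.1 in an exact permutation test (two-sided), the smallest that 3 against 3 libraries can give. After adjustment over the 3 paralogue pairs p was 0.15 (exact permutation test).

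Sterol esters for storage are made by Are1 and Are2. ARE1 (YCR048W, chromosome III, 211929 to 213761, plus strand), a sterol acyltransferase gene, was at 35.8, 51.2 and 46.0 RPKM in WT and at 63.1, 71.9 and 63.4 RPKM in scc2-4. It rose 1.5-fold, from 44.4 ± 7.83 to 66.1 ± 4.98 RPKM (log2 change 0.59 ± 0.17 SE; adjusted p = 0.0361, limma), and it overlaps YCR049C and YCR050C. The call ended without any one of the scc2-4 replicates (adjusted p = 0.0787 to 0.123), and the change was 0.40 without WT replicate 1 (adjusted p = 0.0138).

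ARE2, which encodes the acyltransferase with the larger part in ergosterol ester synthesis, was at 49.4, 41.9 and 32 RPKM in WT and at 34.4, 32.9 and 29.8 RPKM in scc2-4. WT replicate 3 lay within the mutant range, and the log2 change was -0.31 (adjusted p = 0.121, limma). The ratio of ARE2 to ARE1 was 1.38, 0.819 and 0.696 in WT and 0.545, 0.458 and 0.470 in scc2-4, with no overlap. The difference of the log2 ratio was -0.90 (exact permutation test, two-sided, p = 0.1, and 0.15 over the 3 pairs), and -0.61 without WT replicate 1. HES1, a member of the oxysterol-binding protein family, had the lowest level of the 30 genes, with 9.06, 13.4 and 9.89 RPKM in WT and 12.2, 12.2 and 11.4 RPKM in scc2-4, and its groups overlapped (log2 change 0.17, adjusted p = 0.440, limma).

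**Figure D3:**
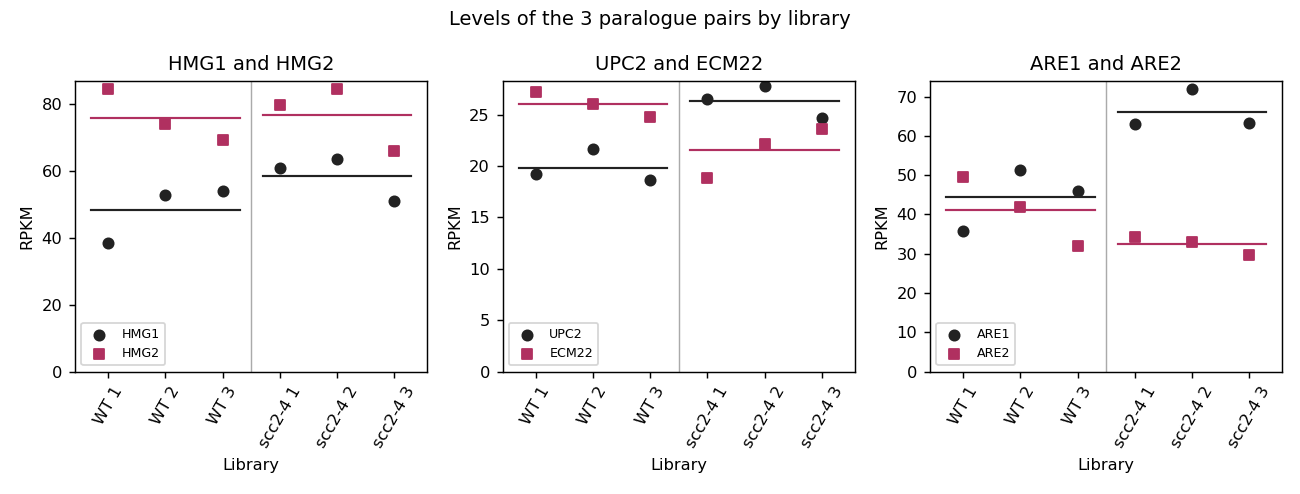
RPKM of the 3 paralogue pairs in each of the 6 libraries, with horizontal lines at the mean of each genotype; the axes start at 0. UPC2 and ECM22 exchange their order between WT and scc2-4, ARE1 lies above ARE2 in all mutant libraries, and HMG2 lies above HMG1 throughout.

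The core of the sterol element was set against these changes. Of the 9 members that carry it, 7 lay above WT in all mutant libraries and 2, ERG28 and ERG2, below WT in all of them, and ERG25 and CYB5 rose. Over all features 30.9% lay entirely above WT, 23.6% entirely below, and 17.5% were called higher. The median log2 change of the 9 was 0.47, with a range from -0.38 to 1.07, and it was 0.28 without WT replicate 1. Of the 21 members without it, 10 lay entirely above WT and 1 below, MVD1, UPC2 and ARE1 rose, and the median change was 0.22, or 0.17 without WT replicate 1. MVD1 and ERG11 belong to the members with higher mutant values and have no match to these letters in the window searched.

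For the mevalonate and the oxygen-using genes the group medians differed little between the mutant libraries. Relative to the WT mean, the median of the 7 mevalonate genes was 0.33 in each mutant library. That of the 5 oxygen-using genes was 0.58, 0.54 and 0.53. The medians of the WT libraries were less alike. In replicates 1, 2 and 3 they were -0.51, 0.21 and 0.31 for the oxygen-using genes and -0.13, 0.055 and 0.074 for the mevalonate genes. Medians do not give the spread of single genes. The SD in RPKM was larger in scc2-4 than in WT for ERG10, ERG12 and HMG2, and smaller for the other genes of both groups. For the 8 other late genes the medians lay between -0.077 and 0.084 in all 6 libraries.

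**Figure D4:**
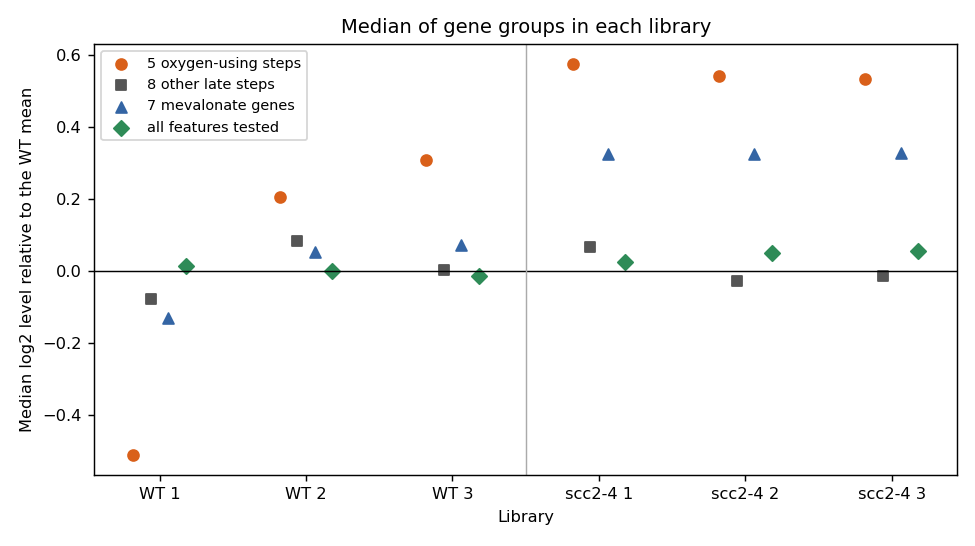
Median log2 level of 4 groups of genes in each library, relative to the mean of the WT libraries. The 5 oxygen-using genes lie at -0.51 in WT replicate 1 and between 0.53 and 0.58 in scc2-4, while the median over all features tested lies between -0.012 and 0.058.

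The 9 lists of genes around the pathway were examined with the same fit. Over all features tested 17.5% were called higher and 15.0% lower, and these background shares apply to every list. Of 10 genes listed as regulators of HMG-CoA reductase or the cytochromes P450, 4 fell and 6 did not pass (median log2 change -0.13). The 4 were NSG2, a homologue of the mammalian Insig proteins that stabilises Hmg2, and DER1, HRD1 and UBC7 of the endoplasmic reticulum degradation system. DER1 fell 1.63-fold, from 37.0 ± 1.78 to 22.2 ± 2.15 RPKM (adjusted p = 0.00451, limma). NSG2 fell 1.51-fold (adjusted p = 0.0182), HRD1 1.34-fold (0.0276) and UBC7 1.29-fold (0.0356). HRD3 and CUE1 of the same degradation system did not pass, with log2 changes of -0.03 and 0.17. The counts were also 0 and 4 without WT replicate 1, with a median of -0.056.

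Genes of sterol uptake and of the anaerobic cell wall, most of which are known to be induced when oxygen is lacking, had the lowest median, -0.52. The 9 tested genes comprised 1 that rose, 5 that fell and 3 that passed in neither direction, and 1 and 5 was also the count without WT replicate 1. TIR1, a cell wall mannoprotein gene, fell 2.40-fold, from 62.9 ± 2.26 to 25.7 ± 4.91 RPKM (adjusted p = 0.00228, limma). SUT2, a regulator gene related to the sterol uptake regulator SUT1, fell 1.55-fold (adjusted p = 0.00560). The sterol importers parted: AUS1 fell 1.66-fold, from 31.9 ± 3.21 to 18.8 ± 3.41 RPKM (adjusted p = 0.0115, limma), and PDR11, on chromosome IX, rose 1.63-fold, from 6.85 ± 0.664 to 11.7 ± 1.47 RPKM (adjusted p = 0.00868, limma). The log2 change of PDR11 was 0.71, below the median of 0.81 on that chromosome, where 174 of the 244 features tested were called higher.

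The list on turnover and acetylation of sterols held 6 genes, with 2 that rose and 4 that did not pass (median 0.13, or 0.071 without WT replicate 1). Both were steryl ester hydrolase genes that undo the reaction of Are1 and Are2. YEH1 stood at 11.4, 20.02 and 18 RPKM in WT and at 37.3, 37.6 and 37.3 RPKM in scc2-4 and rose 2.27-fold (adjusted p = 0.0104, limma). YEH2 rose 1.56-fold, from 23.6 ± 3.24 to 36.7 ± 0.419 RPKM (adjusted p = 0.0172, limma). TGL1, the third hydrolase gene, had a log2 change of -0.30 and did not pass.

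Haem, the cofactor of Erg11 and Erg5, is made by enzymes of which 2 of 8 had genes that fell and 6 had genes that did not pass (median -0.10). HEM12, the uroporphyrinogen decarboxylase gene, fell 1.31-fold (adjusted p = 0.0215, limma) and HEM15, the ferrochelatase gene, fell 1.34-fold (adjusted p = 0.0415, limma). HEM13, an enzyme gene known to be induced by lack of haem or oxygen, was at 124 RPKM in WT and at 120.1 RPKM in scc2-4. Of 12 genes controlled by haem and oxygen or acting in that control, 2 rose, 2 fell and 8 did not pass (median -0.063). The shares over all features were 17.5% higher and 15.0% lower. The medians of these 2 lists were -0.22 each without WT replicate 1, with 2 and 3 genes lower. CYC7, the gene of the hypoxic cytochrome c, fell 5.39-fold (adjusted p = 0.0169, limma), from 219, 62.3 and 56.4 RPKM in WT to 27.7, 15.4 and 9.62 RPKM in scc2-4, with a log2 change of -2.43 that was -1.85 without WT replicate 1, and SPT23 fell 1.28-fold (0.0290). MGA2, on chromosome IX like CBR1, rose 2.01-fold (0.00278). HEM13 and OLE1 are each in 2 of the lists.

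The branches that draw on isoprenoids had 1 gene that rose, 2 that fell and 10 that did not pass among 13 (median -0.065). The count lower was 3 without WT replicate 1, and the median -0.0018. MOD5, a transfer RNA isopentenyltransferase gene, rose 1.46-fold (adjusted p = 0.0283, limma), and BET4 and RAM2, subunit genes of protein prenyltransferases, fell 1.41-fold (0.0339) and 1.24-fold (0.0449). Among 17 genes of sterol transfer proteins 3 fell and 14 did not pass (median -0.086, or -0.018 without WT replicate 1). Over all features 15.0% were called lower, so the lower counts of both lists lie near that share. YFL042C, which RefSeq names LAM5, fell 1.77-fold (0.0184), OSH2 fell 1.52-fold (0.0429) and OSH7 1.36-fold (0.0288).

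In fatty acid synthesis 1 of 10 genes rose and 9 did not pass (median 0.21), while 17.5% of all features were called higher. The gene was FEN1, also named ELO2, a fatty acid elongase gene, which rose 1.65-fold from 83.4 ± 19.2 to 135 ± 11.5 RPKM (adjusted p = 0.0374, limma). The list had 2 genes higher and 1 lower without WT replicate 1, with a median of 0.076. The desaturase gene OLE1 stood at 718 RPKM in WT and at 735 RPKM in scc2-4. The 13 genes of sphingolipid synthesis comprised 1 that rose, 3 that fell and 9 that passed in neither direction (median -0.13). LCB1, of serine palmitoyltransferase, rose 1.54-fold (0.0293), and SCS7, SUR1 and LAC1 fell 1.54-fold (0.0161), 1.67-fold (0.0304) and 1.27-fold (0.0367). Of the 27 genes named from the 9 lists, all were also called with WT replicate 1 left out, 14 with WT replicate 2 and 23 with WT replicate 3 left out. With scc2-4 replicate 1, 2 or 3 left out, 12, 9 or 8 were called. The 8 called whichever library was left out were MGA2, CBR1, DER1, YEH1, TIR1, SUT2, PDR11 and AUS1. Of these, MGA2, CBR1 and PDR11 lie on chromosome IX, where 174 of the 244 features tested were called higher. All 27 had been named for a small adjusted p in the same libraries, so the refits are not independent of that choice.

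**Figure D5:**
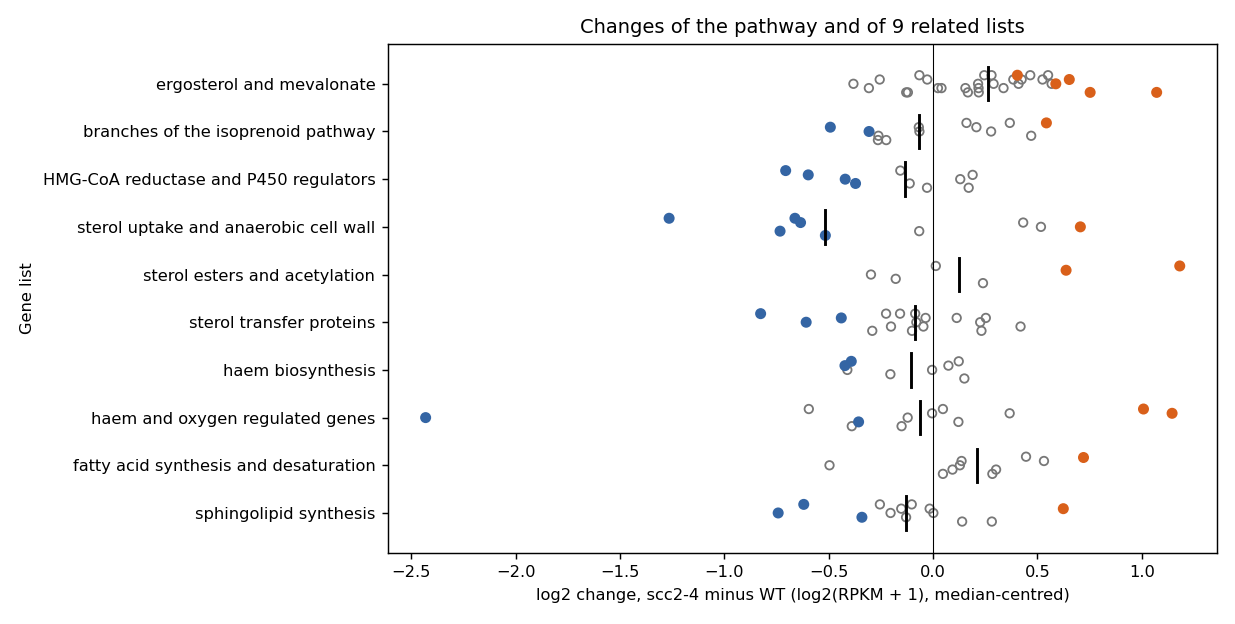
Log2 change of every tested gene of the pathway (top row) and of 9 related lists, 1 point per gene; filled orange points passed as higher, filled blue points as lower, open points did not pass, and black bars are medians. The pathway's median, 0.26, is the highest of the 10 rows and that of sterol uptake and anaerobic cell wall genes, -0.52, the lowest.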

How the data were processed

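Transcript levels came from 1 table deposited by the authors, with RPKM values for 3 WT and 3 scc2-4 libraries; 6 of the 9 samples in the labels can thus be represented, and the others were not analysed here. Bowtie and sacCer3 are named per the submitters' processing notes. Its version, and how reads were counted, is not given in the sources used here. In the deposited RPKM values each column, multiplied by feature length in kilobases, sums to 1000000, so they are relative to reads assigned to features. Low values were whole multiples of 1 read (100% of those up to 100 reads lay within 0.1 of a whole read), which gave the depths.

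Values were transformed to log2(RPKM + 1) and centred on the median of the 6559 features whose RPKM averaged 1 or more; all 30 members passed this filter. The test between genotypes was that of limma 3.58.1 (R 4.3.3) (trend, Benjamini-Hochberg over all features, threshold 0.05), run also on simulated data. Confidence intervals are at 95%. Paralogue ratios were tested by exact permutation. The upstream search used TCGTATA and the Hap1 motif, both strands. Python 3.11.15 was used for tables and figures. With 3 libraries a genotype, limma p-values set the difference between genotypes against the variance between libraries, moderated over all features. The members, the 9 lists (up to 4 genes named from each, by smallest adjusted p) and the tests were chosen with earlier results of these data known. Alternatives were another pseudocount (0.1), no filter, other centring, no trend, features without overlap, a replicate block, leaving out each library and, added after seeing the data, limma-voom on the recovered reads.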

Additional observations from a re-analysis of the deposited data

How the results depend on the processing

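A count of 5 members higher and 0 lower was also found with a pseudocount of 0.1, no filter, no trend and voom on recovered reads, and both other centrings gave 6 higher. Without overlapping features 27 members were tested and 5 were higher, 4 of them called with all features; ARE1 was not among the 27 and ERG13 passed (adjusted p = 0.0430, limma). Same-numbered libraries were not taken as paired in the main fit. Their deviations from the genotype means correlated at 0.31, -0.062 and 0.35, and whether they share replicate effects was not tested. With the replicate block 7 members were called higher, with ERG13 and ERG11 added, and 1 lower, ERG28. That fit called 2341 features, against 2133 in the main fit. Leaving out 1 library gave 766 to 2442 features called, 0 to 9 members higher and 0 to 1 lower, the lower one being ARE2 without WT replicate 3. The lowest counts came without a scc2-4 replicate. Leaving out a library of either genotype lowers the power, and why the counts differed between genotypes was not tested. The signs of 3 uncalled members turned when 1 library was left out: HMG2 ranged from -0.049 to 0.11, ERG24 from -0.0035 to 0.091 and ERG27 from -0.069 to 0.022. The cause was not tested. Of 417 refits of single members, 382 kept direction and call, 16 lost and 15 gained a call, and 4 turned sign. Only the 5 called members could lose a call, so the 417 do not measure how stable the calls were. The losses were 4 each for ERG25 and UPC2, 3 each for MVD1 and ARE1, and 2 for CYB5. All came in refits with 1 library left out. The edgeR test planned for recovered reads was not run.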
